A study of Homo sapiens with 36 samples.

Results

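The genes described here are 10 genes of fatty acid uptake and activation, out of 19014 genes in the table of normalized counts. They are the 6 fatty acid transport proteins SLC27A1 to SLC27A6 and 4 long-chain acyl-CoA synthetases, ACSL1, ACSL3, ACSL4 and ACSL5. ACSL6 is not among them and is given below with related genes. The 10 genes were taken by gene symbol, and the set was chosen by family with the normalized counts known. In those counts SLC27A6 and ACSL5 stood out between NEUROD1 knockout and control clones. The genotype differences of the 10 genes are therefore given as values, with 1 count of calls from which nothing is read, while their responses to JQ1, and both contrasts in neighbouring and related genes, were tested. All 10 genes were among the 15711 genes that passed the filter on low values. SLC27A6 reached the minimum of 10 normalized counts in 17 libraries, all from knockout clones of both treatments, and ACSL5 in 9, all from knockout clones with DMSO. ACSL5 therefore passed only through the group in which it was high, and its response in knockout clones is a description with no test, as are the differences in response of ACSL5 and SLC27A6 between genotypes.

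A long-chain fatty acid that enters a cell is of little use to it until coenzyme A has been attached. The acyl-CoA synthetases of the ACSL family carry out that step on the membranes of the endoplasmic reticulum, mitochondria and lipid droplets, and the SLC27A proteins join uptake at the membrane to acyl-CoA synthetase activity of their own, some of it for very long chains or bile acids. The acyl-CoA that results can be burned in mitochondria or peroxisomes, built into phospholipids and triglycerides, or elongated and desaturated. Through these steps the genes bear on how much fatty acid a cell can take up and keep. Only RNA was measured here, not uptake or lipid.

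RNA was sequenced from clones of H446, an established cell line from a human small-cell lung carcinoma of the NEUROD1-expressing subtype. The groups were NEUROD1 knockout clones 12, 15 and 2-1 (all made with NEUROD1 gRNA #297) with JQ1, the same knockout clones with DMSO, control clones 3, 10 and 13 (non-targeting gRNA) with JQ1, and the same control clones with DMSO. JQ1, an inhibitor that occupies the acetyl-lysine pocket of BET bromodomain proteins, was given at 1 µM for 24 h, and DMSO is its solvent. All clones grew in RPMI with 10% heat-inactivated serum. Each clone has 3 libraries per treatment, but 1 of the 36 libraries (knockout clone 12, JQ1, replicate 1) was left out, which leaves 35. A clone is one selected line with its own history, so values are means ± SD over 3 clones (n = 3), and a genotype difference cannot be told apart from differences between the clones that happened to be picked.

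The 35 libraries held 13282337 to 18890506 whole reads each. NEUROD1, the targeted gene, had at most 10.2 normalized counts in any knockout library and 5134 to 8692 in the control libraries. Neuroendocrine markers (7 of 7 in the table, all detected in every group) summed to 3635 to 13753 normalized counts in knockout DMSO libraries and 22981 to 38326 in control DMSO libraries. Fibroblast markers (6 of 6, all detected in every group, COL1A2 the highest) summed to 25519 to 55025 in knockout DMSO, 2286 to 9186 in control DMSO, 7970 to 12704 in knockout JQ1 and 368 to 2168 in control JQ1 libraries. With JQ1 the neuroendocrine sums were 2673 to 6064 in knockout and 23686 to 38827 in control libraries, the latter near the control DMSO range. Both sums differed between genotypes, and the fibroblast sum also differed between treatments in both genotypes, as several genes below do. The part of these cell markers in the results was not tested. In bulk RNA, fewer cells of a type and less RNA per cell cannot be told apart. Lung epithelial markers (5 of 8 in the table) summed to 2.33 to 129.8 and blood markers (4 of 8) to 1.14 to 48.2 over the 35 libraries, against 67884 and 17100 in the library left out. Of the lung markers, SFTPA1 and CEACAM6 had 0 reads in the knockout libraries of both treatments and in the control DMSO libraries.

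The promoters of SLC27A6 and ACSL5 are shown because these genes had the largest differences, and because their upstream sequences differ in kind. Each is the stretch of 250 bases before an annotated start, from RefSeq on GRCh38.p14, plus strand, 5′ to 3′. Capitals mark E-boxes, the motif CANNTG (read on both strands, where it is its own reverse complement) that basic helix-loop-helix factors such as NEUROD1 bind.
SLC27A6, chr5:128965238-128965487: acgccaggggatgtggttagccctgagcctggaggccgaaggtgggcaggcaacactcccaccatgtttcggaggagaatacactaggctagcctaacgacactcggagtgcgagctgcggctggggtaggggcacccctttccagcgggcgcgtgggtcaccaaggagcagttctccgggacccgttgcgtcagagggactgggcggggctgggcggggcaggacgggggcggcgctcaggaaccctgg
ACSL5, first start, chr10:112375018-112375267: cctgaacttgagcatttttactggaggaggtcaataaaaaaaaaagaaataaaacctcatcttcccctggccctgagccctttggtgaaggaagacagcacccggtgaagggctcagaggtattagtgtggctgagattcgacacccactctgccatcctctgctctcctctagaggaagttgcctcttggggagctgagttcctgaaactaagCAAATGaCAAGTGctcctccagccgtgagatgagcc
ACSL5, second start, chr10:112375955-112376204: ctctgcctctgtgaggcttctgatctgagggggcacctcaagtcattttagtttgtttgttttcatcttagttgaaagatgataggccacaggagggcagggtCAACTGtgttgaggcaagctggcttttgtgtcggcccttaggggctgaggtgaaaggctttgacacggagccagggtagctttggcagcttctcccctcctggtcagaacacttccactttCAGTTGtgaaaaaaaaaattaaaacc

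The SLC27A6 promoter was 67.6% G and C, with 18 CpG dinucleotides, and 73.7% of the 34943 human promoters in the same table had a lower share of G and C. Both ACSL5 promoters were poorer in G and C, at 50% and 48.8%, with 3 and 2 CpG dinucleotides. CANNTG matched nowhere in the SLC27A6 window, and at 2 places in each ACSL5 window, positions -36 and -29 from the first start and -147 and -26 from the second. Over all promoters, counted from 250 bases before to 50 after the start, 68.7% held at least 1 CANNTG. The form CAGATG, searched on both strands and present in 14.7% of all promoters, was in none of these windows, and among the 15 promoters of the 10 genes it occurred in 2, both of ACSL1.

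Per unit of length, the RNA of SLC27A6 was the most abundant of the 10 in knockout DMSO clones and the scarcest in control clones. Levels in FPKM (fragments per kilobase of transcript and sequencing depth, the deposited values, averaged per clone) allow genes to be compared with each other. In knockout DMSO clones the level of SLC27A6 averaged 116.8 ± 35.5 FPKM. ACSL3 followed at 35.9 ± 3.92, ACSL4 at 25.7 ± 6.62 and SLC27A3 at 16.3 ± 5.29 FPKM. SLC27A5 at 11.6 ± 4.62, SLC27A1 at 11.1 ± 4.83, SLC27A4 at 7.58 ± 2.27 and ACSL1 at 5.79 ± 4.63 FPKM lay within each other's spread between clones. SLC27A2 at 3.54 ± 1.26 and ACSL5 at 1.31 ± 1.24 FPKM were at the bottom.

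In control DMSO clones the order began with ACSL3 at 32.3 ± 0.646, ACSL4 at 22.7 ± 3.56 and SLC27A5 at 20.1 ± 4.09 FPKM, of which the levels of ACSL4 and SLC27A5 overlap. SLC27A4 at 12.7 ± 2.53 and ACSL1 at 10.0 ± 2.87 FPKM overlap as well, and so do SLC27A2 at 3.66 ± 1.20, SLC27A1 at 3.33 ± 0.428 and SLC27A3 at 2.36 ± 1.89 FPKM. ACSL5 stood at 0.0922 ± 0.0236 FPKM and SLC27A6 at 0.00556 ± 0.00962 FPKM. In both genotypes, then, ACSL3 and ACSL4 were the main synthetases of the 4, and the genotypes parted over which transporter led.

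Summed over the 6 transporters, the level came to 166.9 ± 44.0 FPKM in knockout DMSO clones and 42.2 ± 7.57 FPKM in control DMSO clones, and SLC27A6 made up 69.4 ± 4.72% of the sum in knockout and 0.0162 ± 0.0280% in control clones. With JQ1 the sum was 74.9 ± 15.5 FPKM in knockout clones, of which SLC27A6 was 53.1 ± 1.36%, and 38.7 ± 5.26 FPKM in control clones. SLC27A5 held 32.8 ± 2.06% of the control sum with JQ1 and 47.6 ± 2.21% with DMSO, while SLC27A4 held 46.1 ± 2.39% with JQ1 and 29.97 ± 0.878% with DMSO. Shares in FPKM depend on the length assigned to each gene. In normalized counts, not corrected for length, SLC27A4 had 550 ± 103 and SLC27A5 150 ± 29.9 in control DMSO clones. The 4 synthetases, without ACSL6, summed to 68.7 ± 10.9 FPKM in knockout DMSO and 65.1 ± 4.29 FPKM in control DMSO clones. This difference was smaller than the spread between clones. ACSL6 averaged 7.83 ± 7.76 normalized counts in knockout DMSO and 495 ± 400 in control DMSO clones.

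**Figure D1:**
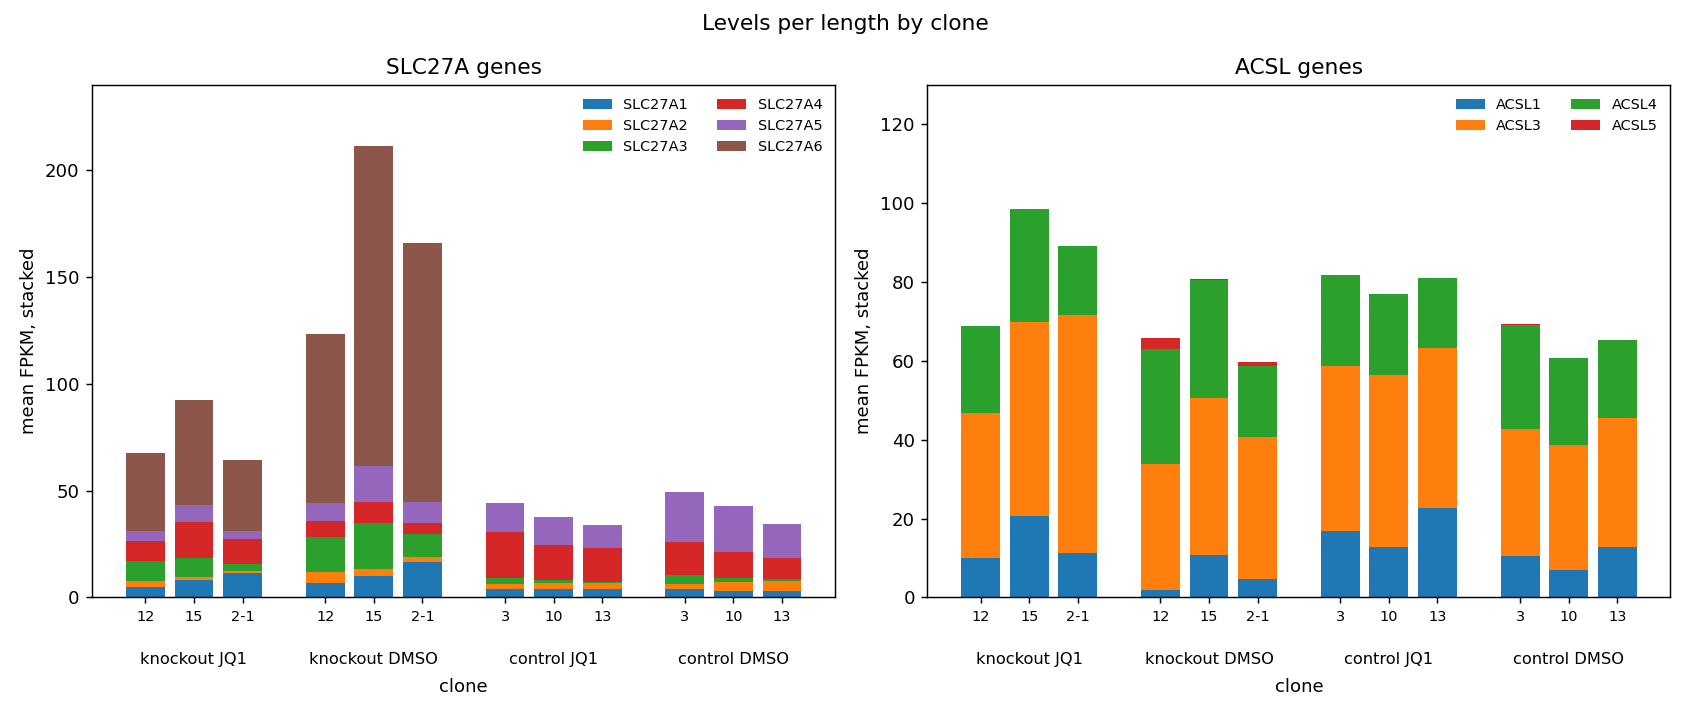
Mean level in FPKM of each SLC27A gene (left) and of ACSL1, ACSL3, ACSL4 and ACSL5 (right). Bars are stacked per clone, for knockout and control clones with JQ1 or DMSO. SLC27A6 is the tallest block in each knockout clone and cannot be seen in any control clone, while the ACSL bars are built mostly of ACSL3 and ACSL4 in every clone.

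SLC27A6 (ENSG00000113396), the transporter known chiefly from heart muscle, separated the genotypes completely. Its normalized counts in knockout DMSO libraries ran from 3262 through a median of 4799 to 5915, and in control DMSO libraries 8 of 9 had 0 and the other, of clone 13, had 2.00. Clone 15 was the highest knockout clone with a mean of 5786, ahead of clone 2-1 with 4840 and clone 12 with 3302, and libraries of different clones did not mix. Over the DMSO libraries 41525 reads stood against 2, a ratio of 21158 with an exact 95% interval of 5857 to 174720, which covers counting error only. On the log2(normalized count + 1) scale the difference was 11.97 ± 0.32 (SE). With JQ1, knockout libraries had 1351 to 2007 normalized counts (median 1567) and all 9 control libraries had 0, so the level was at least 4830-fold higher in knockout clones when a floor of 3 reads over the control group is used.

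JQ1 lowered SLC27A6 in each of the 3 knockout clones. The mean of 3 clones fell to 1635 ± 295 normalized counts with JQ1, against 4643 ± 1254 with DMSO, and the lowest DMSO library lay above the highest JQ1 library. The log2 fold change was -1.48 ± 0.19 (limma, adjusted p = 0.00031), a 2.79-fold fall, and ranged from -1.81 to -1.08 over the clones. With JQ1 the clones also lay closer together, at 1959 in clone 15, 1567 in clone 12 and 1380 in clone 2-1. In control clones there was no level to lower: 0 reads with JQ1 and 2 with DMSO allow no fold to be given. The response in knockout minus that in control clones, -1.31 on the log2(normalized count + 1) scale, 1.09 with edgeR and -0.03 with DESeq2 on whole reads, is set against those libraries and is not read as a difference.

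**Figure D2:**
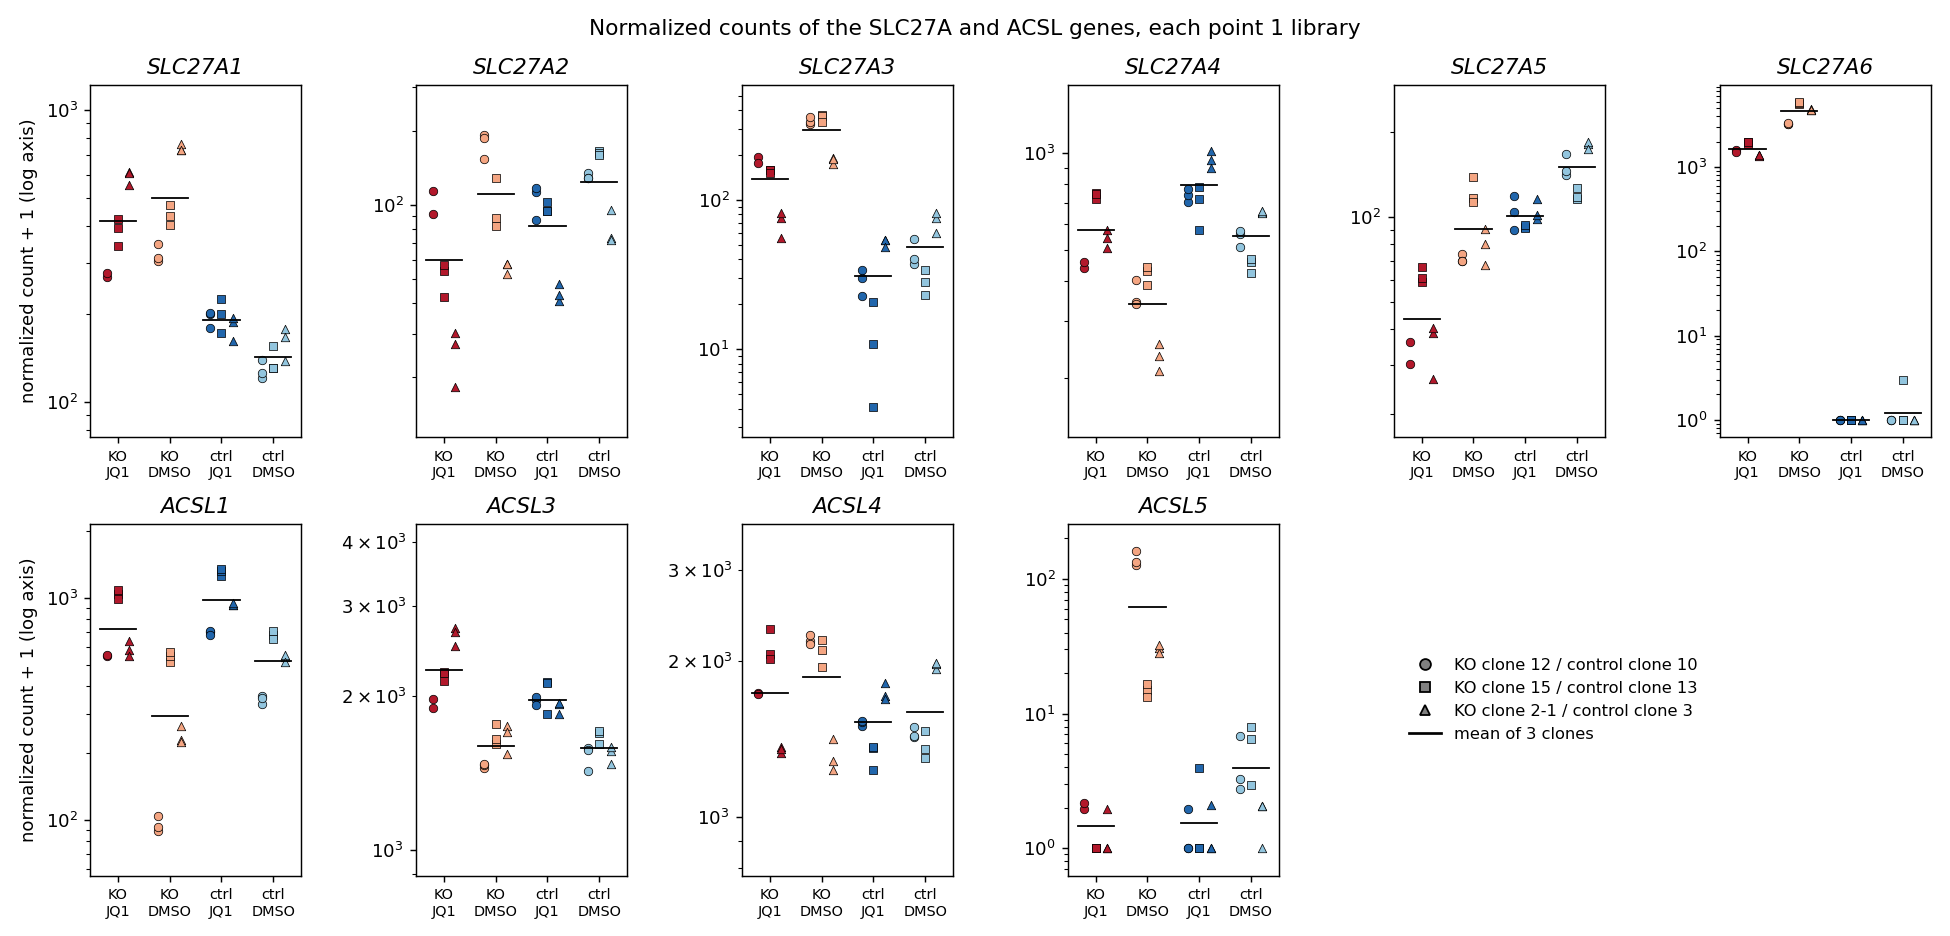
Normalized count + 1 on a log axis for each of the 10 genes, 1 point per library, with the marker shape giving the clone and the black line the mean of 3 clones. SLC27A6 lies between 1351 and 5915 in knockout libraries and at 2.00 or less in control libraries, and ACSL5 is at 10 or more only in knockout DMSO libraries.

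SLC27A6 lies on chromosome 5, from 128538013 to 129033642 on the plus strand of GRCh38 in GENCODE 29, and its model overlaps FBN2, which encodes the extracellular matrix protein fibrillin-2, on the opposite strand. FBN2 had 28588 ± 26884 normalized counts in knockout DMSO clones and 0.108 ± 0.188 in control DMSO clones. The exons of both models share 56 bases, and since no source used here states whether counting used strand, reads from those bases cannot be told apart. The clones ranked differently for the pair: FBN2 averaged 56792 in clone 12, 25720 in clone 2-1 and 3253 in clone 15, where SLC27A6 was highest with 5786.

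The 4 tested genes on either side were read in the same way. ISOC1, the next gene to the right, averaged 2903 ± 556 normalized counts in knockout DMSO clones and 295 ± 15.5 in control DMSO clones, a log2 difference of 3.28 ± 0.17 (limma, adjusted p = 0.000152). SLC12A2, which encodes a sodium, potassium and chloride cotransporter, averaged 1361 ± 318 and 534 ± 18.5 in the same groups, a log2 difference of 1.32 ± 0.20 (limma, adjusted p = 0.00851). ADAMTS19 differed by 2.65 ± 1.04 without passing the threshold (limma, adjusted p = 0.153). PRRC1, at -0.12, and HINT1, at -0.11, were nearly level. Thus, with DMSO, SLC12A2 and ISOC1 passed and were higher in knockout clones, and the other neighbours apart from FBN2 did not pass. FBN2 was higher as well, but had at most 1.04 normalized counts in any control library. It passed the filter only through knockout libraries, so its genotype difference is a description with no test. The left ends of the models of FBN2, SLC12A2 and ISOC1 lie within 0.557 Mb of that of SLC27A6. Distances differ from the SLC27A6 start shown above, whose promoter at 128965238 to 128965487 lies inside the SLC27A6 model. With JQ1 the log2 differences were 0.28 for SLC12A2 (limma, adjusted p = 0.478), 2.19 for ISOC1 (0.00345) and 13.1 for FBN2, the last given without a test. These neighbours were looked at after the level of SLC27A6 was known.

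**Figure D3:**
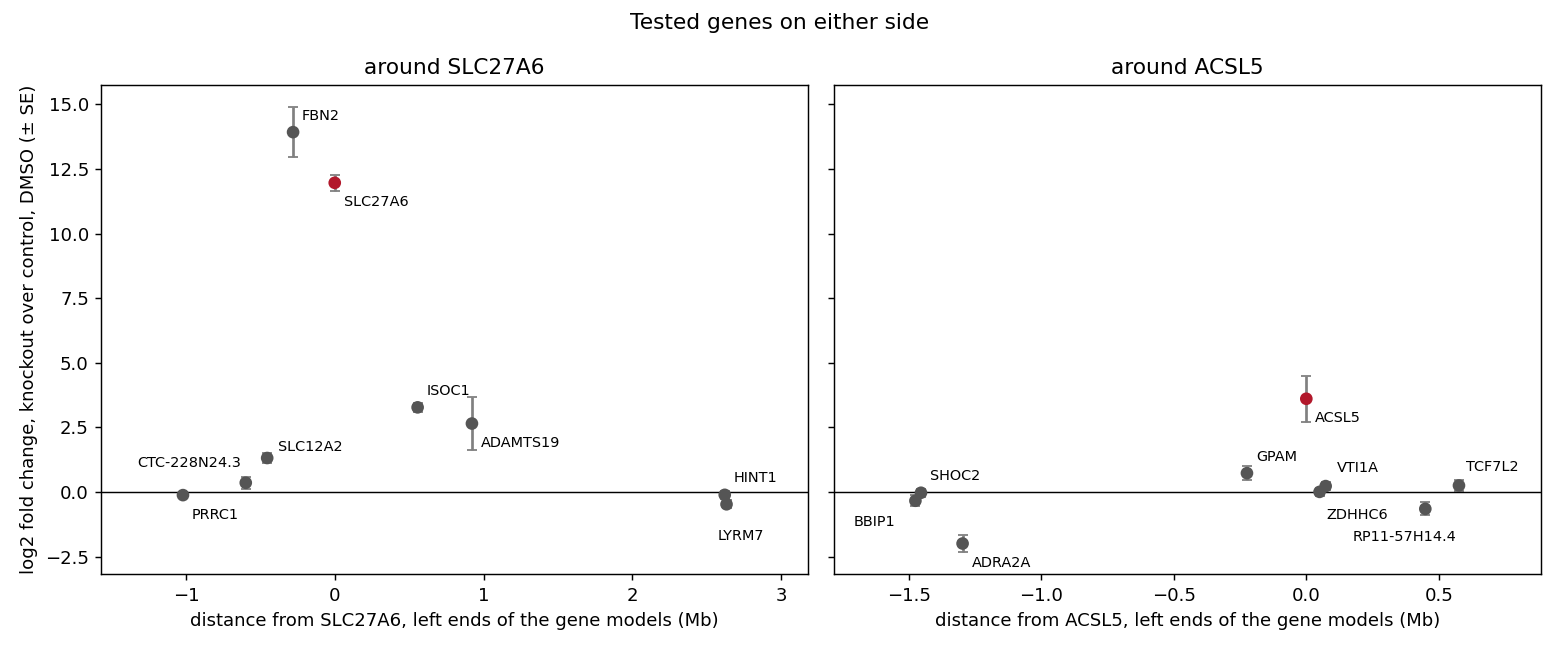
Log2 fold change ± SE of knockout over control clones with DMSO (vertical axis) for SLC27A6, ACSL5 (red) and the 4 tested genes on either side of each, by distance between the left ends of the gene models in Mb (horizontal axis). FBN2, ISOC1 and SLC12A2 are higher beside SLC27A6, while beside ACSL5 the nearest genes to the right, ZDHHC6 and VTI1A, lie at 0.01 and 0.23 and the nearest to the left, GPAM, at 0.73.

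Among the other transporters, SLC27A1 and SLC27A3 were also higher in knockout clones. SLC27A1, which takes up fatty acids in muscle and fat under insulin, had 301 to 762 normalized counts in knockout DMSO libraries (median 433) and 120 to 177 in control DMSO libraries (median 137), with no overlap, and a log2 difference of 1.73 ± 0.32. SLC27A3, mainly known for its synthetase activity, had 175 to 368 (median 330) and 21.98 to 80.8 (median 39.0), a log2 difference of 2.67 ± 0.43. Its model shares 455 exon bases with INTS3 on the same strand, whose level was 2111 normalized counts in knockout DMSO and 2122 in control DMSO clones. SLC27A4, the transporter of gut and skin, lay the other way, with 337 ± 95.4 normalized counts in knockout DMSO and 550 ± 103 in control DMSO clones. SLC27A5, the liver enzyme that activates bile acids, had 90.1 ± 27.6 and 150 ± 29.9 in those groups. For SLC27A4 and SLC27A5 the libraries of the 2 genotypes overlapped with DMSO. The SLC27A5 model overlaps ZNF446 on the opposite strand, which averaged 186 normalized counts in knockout DMSO and 227 in control DMSO clones. Their shared exon bases were not counted. SLC27A2, an activator of very-long-chain fatty acids in liver and kidney, averaged 110 ± 61.8 in knockout and 124 ± 41.4 in control DMSO clones.

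SLC27A2 differed 3.23-fold between the highest and the lowest knockout clone with DMSO, with means of 177 in clone 12, 98.6 in clone 15 and 54.8 normalized counts in clone 2-1. The same order held with JQ1, at 102, 50.2 and 24.4 normalized counts. SLC27A1 had the reverse order, with 320 in clone 12, 436 in clone 15 and 739 in clone 2-1. Each of these clone values is a mean of 3 libraries, or of 2 for clone 12 with JQ1.

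JQ1 moved most of the transporters in the same direction in both genotypes. SLC27A2 fell to 58.9 ± 39.7 normalized counts in knockout JQ1 clones, against 110 ± 61.8 with DMSO, and the log2 fold change was -0.97 ± 0.15 (limma, adjusted p = 0.00086). In control clones it fell as well, by a log2 fold change of -0.64 ± 0.15 (adjusted p = 0.0078 from limma), a call that was lost on FPKM values, where the change was -0.46 (adjusted p = 0.0532). SLC27A3 changed by -1.15 ± 0.21 in knockout (limma, adjusted p = 0.0020) and by -0.87 ± 0.21 in control clones (adjusted p = 0.0091). INTS3, which shares 455 exon bases with it, was also lower with JQ1. It averaged 934 normalized counts with JQ1 and 2111 with DMSO in knockout clones, and 1012.5 and 2122 in control clones. The part of INTS3 reads in the SLC27A3 changes was not tested. SLC27A5 changed by -1.09 ± 0.13 (limma, adjusted p = 0.00022) and -0.57 ± 0.13 (adjusted p = 0.0073) in knockout and control clones. SLC27A4 was the transporter that rose in both, by 0.78 ± 0.14 in knockout (limma, adjusted p = 0.0019) and 0.53 ± 0.14 in control clones (adjusted p = 0.014). Each of these 4 transporters moved in its direction in 3 of 3 knockout and 3 of 3 control clones. None of the 4 differences between the genotypes' responses passed the threshold (limma, adjusted p of 0.122 to 0.593).

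SLC27A1 behaved differently. It rose in control clones, to 190 ± 9.16 normalized counts with JQ1 against 141 ± 16.5 with DMSO, a log2 fold change of 0.43 ± 0.10 (limma, adjusted p = 0.0074). On FPKM values the rise was 0.23 and did not pass (limma, adjusted p = 0.135). In knockout clones it averaged 416 ± 162 with JQ1 and 498 ± 216 with DMSO, a log2 fold change of -0.24 ± 0.10 that missed the threshold (limma, adjusted p = 0.0687), but on FPKM values the change was -0.41 and passed (limma, adjusted p = 0.0158). The difference between the responses was -0.67 ± 0.14 (limma, adjusted p = 0.0316). It no longer passed when any clone but knockout clone 12 was left out, with an adjusted p of up to 0.131, or on FPKM values, with 0.0682.

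ACSL5 (ENSG00000197142; chromosome 10, 112374018 to 112428380, plus strand, GRCh38 in GENCODE 29), a synthetase of the gut and liver found on mitochondria and the endoplasmic reticulum, was a low-level RNA present above a trace only in knockout clones with DMSO. Its normalized counts ran from 12.2 through a median of 29.8 to 159.7 in knockout DMSO libraries and from 0 through 1.93 to 6.99 in control DMSO libraries, with no overlap. The knockout clones differed 10.02-fold among themselves, at 139 in clone 12, 29.4 in clone 2-1 and 13.9 in clone 15, which is the reverse of their order for SLC27A6. Reads numbered 509 in knockout and 27 in control DMSO libraries, a ratio of 19.2 with an exact 95% interval of 13.0 to 29.4 for counting error only. The log2 difference was 3.61 ± 0.90.

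With JQ1 the RNA of ACSL5 was all but gone. Knockout libraries with JQ1 held 3 reads in all over 8 libraries, against 509 over 9 with DMSO, a 159-fold lower rate with an exact 95% interval of 54.1 to 774. The log2 fold change was -4.86 ± 0.50, and the level was lower with JQ1 in 3 of 3 clones, with a change of -6.08 in the clone that differed most and -3.89 in the one that differed least. Control libraries held 5 reads with JQ1 and 27 with DMSO, a 5.25-fold lower rate with an interval of 1.99 to 17.4. There the log2 fold change was -1.26 ± 0.50, which missed the threshold (limma, adjusted p = 0.0637) and passed it with edgeR (adjusted p = 0.0076) and DESeq2 (adjusted p = 0.0166). The difference between the responses was -3.60 ± 0.71. With the left-out library put back, the log2 fold change in knockout clones was -3.97 and the difference -2.72. With JQ1 both genotypes were at a trace, 0.462 ± 0.550 normalized counts in knockout and 0.554 ± 0.371 in control clones.

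Of the 8 tested genes around ACSL5, 1 passed the threshold between knockout and control DMSO clones, ADRA2A, which lay 1.30 Mb to the left and was lower, with a log2 difference of -1.99 ± 0.33 (limma, adjusted p = 0.0109). ZDHHC6, whose model overlaps that of ACSL5 on the opposite strand with 144 shared exon bases, averaged 456 normalized counts in knockout DMSO and 452 in control DMSO clones, and 442 and 480 with JQ1. GPAM, which starts glycerolipid synthesis from acyl-CoA and lies next to ACSL5, differed by 0.73 ± 0.28 between knockout and control DMSO clones without passing (limma, adjusted p = 0.146).

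ACSL3 and ACSL4 were far more abundant than ACSL5 and nearly level between genotypes, while ACSL1 averaged lower in knockout clones and varied widely among them. ACSL3, which works at the endoplasmic reticulum and on nascent lipid droplets, had 1447 to 1764 normalized counts in knockout DMSO libraries and 1427 to 1712 in control DMSO libraries, ranges that nearly coincide. ACSL4, which prefers arachidonic acid and is known for its part in ferroptosis, had 1233 to 2249 and 1300 to 1987 in the same groups. ACSL1, which serves oxidation and triglyceride synthesis in heart, liver and fat, averaged 291 ± 229 in knockout and 521 ± 166 in control DMSO clones, a log2 difference of -1.12 ± 0.62. Its knockout clones were spread from 94.2 in clone 12 through 238 in clone 2-1 to 542 in clone 15, so that clone 15 lay inside the control range and clones 12 and 2-1 below it. In clone 12 the level of ACSL1 was also below the 139 normalized counts of ACSL5.

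JQ1 raised ACSL1 and ACSL3 in all 6 clones and left ACSL4 without a detected change. ACSL1 rose to 726 ± 272 normalized counts with JQ1, against 291 ± 229 with DMSO, in knockout clones, a log2 fold change of 1.59 ± 0.24 (limma, adjusted p = 0.00071). In control clones it rose to 981 ± 308 with JQ1, against 521 ± 166 with DMSO, a log2 fold change of 0.92 ± 0.24 (limma, adjusted p = 0.0126). The rise was 2.53 on the log2 scale in the clone with the largest change and 0.94 in the smallest of the knockout clones. ACSL3 rose by 0.48 ± 0.06 in knockout (limma, adjusted p = 0.00035) and by 0.31 ± 0.06 in control clones (adjusted p = 0.0038), with every JQ1 library above every DMSO library within each genotype. ACSL4 changed by -0.09 ± 0.08 in knockout (limma, adjusted p = 0.395) and by -0.06 ± 0.08 in control clones (adjusted p = 0.611). For ACSL1, ACSL3 and ACSL4 the genotypes' responses differed by 0.67 ± 0.35, 0.17 ± 0.09 and -0.03 ± 0.12, none past the threshold (limma, adjusted p of 0.248 to 0.886). In control clones the ACSL1 rise missed it without control clone 10 or 13 (limma, adjusted p of 0.0649 and 0.0575), and the SLC27A2 and SLC27A4 changes missed it without clone 3 or 13 (0.0554 to 0.0751). So did SLC27A5 without clone 3 (adjusted p = 0.0669 by limma) and SLC27A1 without clone 10 (0.0645).

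**Figure D4:**
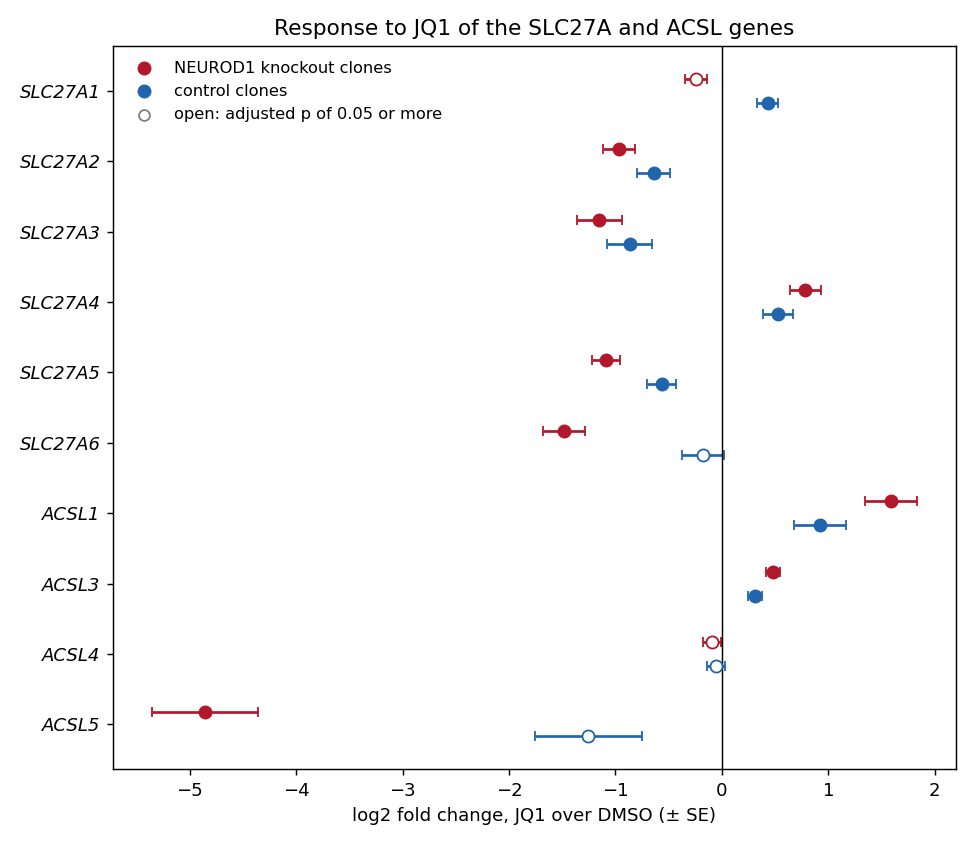
Log2 fold change ± SE of JQ1 over DMSO for each gene, in knockout clones (red, upper) and control clones (blue, lower), with open points for an adjusted p of 0.05 or more. ACSL1, ACSL3 and SLC27A4 lie right of 0 in both genotypes, SLC27A2, SLC27A3 and SLC27A5 lie left of 0 in both, and ACSL5 and SLC27A6 lie farthest left in knockout clones. The knockout value of ACSL5 is a description, since the gene passed the filter through the DMSO libraries of that contrast.

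Counted together, 8 of the 10 genes passed the threshold for JQ1 in knockout clones, 3 higher and 5 lower, where 56.5% of all genes tested passed, 26.3% higher and 30.2% lower. ACSL5 is among the 5, and its call is not counted as a result. In control clones 7 of 10 passed, 4 higher and 3 lower, against 52.7% of all genes, 25.3% higher and 27.4% lower. The median log2 fold change of the 10 genes was -0.61 in knockout clones and -0.12 in control clones, beside -0.05 and -0.01 over all genes. The responses of the genotypes differed for 3 of 10 (SLC27A1, SLC27A6 and ACSL5), against 7.35% of all genes, but the SLC27A6 and ACSL5 calls rest on the filter or on control libraries near 0, and 0 of the 3 passed without control clone 3, 10 or 13 or knockout clone 15. Over only 10 genes, these shares are not read as a departure from the background. Between genotypes, 4 of 10 passed with DMSO (SLC27A1, SLC27A3, SLC27A6 and ACSL5), where the background was 12.5%, and 2 of 10 with JQ1 (SLC27A5 lower, SLC27A6 higher), where it was 11.2%, but these contrasts were known when the genes were chosen and the counts carry no weight. The ACSL5 call did not hold when control clone 3, 10 or 13 or knockout clone 12 or 2-1 was left out, nor the SLC27A1 call without control clone 10 or 13, and with JQ1 the SLC27A5 call was lost on leaving out any clone but knockout clone 15.

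The genes whose pattern over the 12 clone and treatment means was most like that of SLC27A6, among 12232 genes with a mean of at least 50, were TGFB1, AHNAK, WLS, PDK4 and IL13RA1, with Pearson correlations of 0.989 to 0.993. These points fall into 2 clusters, the genotypes, and the correlation mostly records that each gene was high in one and low in the other. Over the 6 knockout means alone the correlations ran from -0.705 (PDK4) to 0.841 (AHNAK). PDK4, a kinase that turns glucose carbon away from mitochondria, averaged 30343 normalized counts in knockout JQ1, 22526 in knockout DMSO, 0.412 in control JQ1 and 1.86 in control DMSO clones, so within knockout clones its level was higher with JQ1, where that of SLC27A6 was lower. AHNAK, a large scaffold protein, had 2007, 3190, 30.3 and 32.3 in the same order of groups. For ACSL5 the most similar genes were NUBPL, PSMB6, PFDN1, GFER and TRIM41, with correlations of 0.908 to 0.926, all of them abundant in every group. Outside the knockout DMSO clones no clone mean of ACSL5 was above 4.81 normalized counts, so these correlations rest mainly on the knockout DMSO means. Over the 6 knockout means alone they ran from 0.944 to 0.981. NUBPL, an assembly factor of respiratory complex I, had 242 normalized counts in knockout JQ1, 502 in knockout DMSO, 169 in control JQ1 and 235 in control DMSO clones.

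Other genes that handle acyl-CoA were counted in 10 lists. Of all genes tested, 12.5% passed between genotypes with DMSO, 11.2% with JQ1, and 7.35% for the difference in response. For JQ1, 56.5% passed in knockout clones (26.3% higher, 30.2% lower) and 52.7% in control clones (25.3% higher, 27.4% lower). No list was tested as a set, and the list counts are not read as a departure from these shares. In control DMSO clones PDK4 averaged 1.86, ANGPTL4 0.539, ACOT9 3.16 and GPAT3 0.111 normalized counts. With levels so far below the filter minimum of 10 in that group, their genotype differences are descriptions, also within the list counts. Of the other acyl-CoA synthetases (5 of 16 tested), ACSL6, the brain form that favours docosahexaenoic acid, averaged 7.83 ± 7.76 normalized counts in knockout DMSO and 495 ± 400 in control DMSO clones, a log2 difference of -6.08 ± 0.84 (limma, adjusted p = 0.0061). ACSS2, which activates acetate, was the one that was higher, by 0.67 ± 0.15 (limma, adjusted p = 0.033). With JQ1, 3 of the 5 rose and 1 fell in knockout clones, and 3 rose and 2 fell in control clones.

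Of 16 tested binding and uptake proteins, 1 was higher and 3 were lower in knockout DMSO clones. CAV1, the caveolar coat protein, was higher, with a log2 difference of 3.49 ± 0.59 (limma, adjusted p = 0.0116). VLDLR, the receptor for very-low-density lipoprotein, averaged 738 ± 230 normalized counts in knockout and 4732 ± 1576 in control DMSO clones, a log2 difference of -2.67 ± 0.34. DBI, which binds acyl-CoA in the cytosol, and ACBD5 were lower, with log2 differences of -0.88 ± 0.19 and -0.90 ± 0.21. JQ1 lowered 6 of the 16 and raised 1 in knockout clones, and lowered 8 and raised 2 in control clones. CD36, the best known fatty acid receptor, averaged 13.1 ± 4.72 with JQ1 and 106 ± 115 with DMSO in knockout clones.

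Of the 8 thioesterases, which release the fatty acid again, 2 were higher in knockout DMSO clones (ACOT9 and THEM4) and JQ1 lowered 5 and raised 0 in knockout clones, and lowered 2 and raised 1 in control clones. Mitochondrial beta-oxidation had 4 of 20 higher and 1 lower in knockout DMSO clones. ACADVL, the first dehydrogenase for very long chains, averaged 6251 ± 1385 normalized counts in knockout and 1946 ± 148 in control DMSO clones (log2 difference 1.66 ± 0.19). HADHB, a subunit of the trifunctional protein, was higher, with a log2 difference of 1.07 ± 0.23, and HADH lower, with -0.78 ± 0.19. With JQ1, 11 of the 20 rose and 2 fell in knockout clones, and 9 rose and 3 fell in control clones, with CPT1B, a gatekeeper of entry into mitochondria, among those that fell in knockout clones, by a log2 fold change of -1.18 ± 0.16. In the peroxisomal list, the carrier ABCD2 was lower in knockout DMSO clones (log2 difference -3.28 ± 0.27), and none of the 14 genes fell with JQ1 in either genotype, while 8 rose in knockout and 6 in control clones. JQ1 raised ABCD3 in knockout clones to 3551 ± 825 normalized counts, against 1738 ± 464 with DMSO.

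Among 21 genes of glycerolipid esterification, 2 were higher and 3 lower in knockout DMSO clones. GPAT3 (listed under its older symbol AGPAT9) averaged 106 ± 152 normalized counts in knockout and 0.111 ± 0.192 in control DMSO clones, with a spread between knockout clones wider than the mean. DGAT1, the last step to triglyceride, rose with JQ1 in knockout clones to 555 ± 72.3, against 194 ± 26.3 with DMSO (log2 fold change 1.53 ± 0.11). In total JQ1 raised 6 and lowered 7 of the 21 in knockout clones, and raised 11 and lowered 3 in control clones. Of 12 lipid droplet and lipolysis genes, the coat protein PLIN3 and BSCL2 (seipin) were higher in knockout DMSO clones, by 1.11 ± 0.19 and 1.45 ± 0.35. The monoglyceride lipase MGLL averaged 11.5 ± 16.6 in knockout and 602 ± 415 in control DMSO clones, and PNPLA3 was lower, with a log2 difference of -2.40 ± 0.46. PNPLA2, the first lipase of stored triglyceride, rose with JQ1 in knockout clones by 0.92 ± 0.06, one of 6 of the 12 that rose, while 2 fell, and in control clones 6 rose and 3 fell.

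Of 18 elongases and desaturases, FADS3 was higher by 3.41 ± 0.35 in knockout DMSO clones, and SCD, which makes monounsaturated fatty acids, averaged 1484 ± 1177 in knockout and 6898 ± 907 in control DMSO clones, a log2 difference of -2.60 ± 0.63. JQ1 raised 6 and lowered 4 of them in knockout clones, and raised 8 and lowered 5 in control clones. Of 11 PPAR receptors, partners and coactivators, PPARG, PPARD and NR1H3 were higher in knockout DMSO clones, by 2.41 ± 0.59, 1.63 ± 0.33 and 1.29 ± 0.26, and none was lower. PPAR receptors are fatty acid sensors that switch on genes of fatty acid uptake and oxidation. Of 10 known PPAR target genes, PDK4 (13.1 ± 0.46) and ANGPTL4 (5.35 ± 0.63) were higher and none was lower. Both differences are descriptions, since both genes were near 0 in control DMSO clones. JQ1 raised 4 and lowered 2 of the receptor list in knockout clones, with PPARG and NR1H3 as the 2 that fell, and raised 3 and lowered 1 of the targets. In control clones it raised 2 and lowered 4 of the receptor list and did the same to the targets. The medians of the 10 lists for knockout over control clones with DMSO lay between -0.13 (esterification) and 0.68 (lipid droplets), beside 0.01 for all genes. With JQ1, knockout and control clones differed for 0 to 4 genes of a list in either direction, and the responses to JQ1 differed between genotypes for 2 mitochondrial oxidation genes upward and 1 downward, 2 and 3 binding and uptake genes, 2 and 1 lipid droplet genes, 2 and 0 PPAR targets, and for 0 upward and at most 2 downward in each of the other lists.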

How the data were processed

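Per the labels' protocols, 6 H446 clones were sequenced as TruSeq Stranded mRNA libraries. Per the submitters' processing notes, cutadapt, STAR, RSEM and the human genome build hg19 were used, with versions and order not given in the sources used here. For the first table, the authors' DESeq2-normalized counts are a signal per gene, read counts over a size factor, not corrected for length. All values (100% within 1e-06) were whole multiples of the smallest step, so whole reads were recovered. The deposited FPKM values of the authors are scaled by gene length and library size.

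Libraries of a clone and treatment were averaged, and n counts clones. A gene needed 10 normalized counts or more in 9 or more of the 35 libraries. It was then tested with limma 3.58.1 (trend) in R 4.3.3 on log2(normalized count + 1), which understates changes of low genes. Genotype was fitted on clone means, and JQ1 on each clone's own difference (JQ1 minus DMSO), with 1 spread over 6 clones. P-values are two-sided, adjusted by the Benjamini-Hochberg method over all 15711 genes, with a threshold of 0.05. Because normalized values were deposited, edgeR 4.0.16 and DESeq2 1.42.0 on recovered reads summed per clone and treatment were alternatives. The others were pseudocounts of 0.5 and 5, no filter, a mean of at least 50, equal library totals, FPKM (offset 0.1), single libraries with and without a replicate block, the left-out library put back, and leaving out each clone and replicate number. Each fit was tested on simulated data.

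The members, the gene lists and the tests were chosen with earlier results of these data known. Named genes were the 10 members, NEUROD1, up to 4 list genes with the largest change between genotypes with DMSO and up to 2 with JQ1 in knockout clones (past the threshold, mean of at least 50), and the 5 genes most similar to SLC27A6 and ACSL5; neighbouring genes were added after their values were seen. A gene that this rule names is not reported here. Gene models came from GENCODE 29 on GRCh38, matched by gene ID, and promoters from RefSeq on GRCh38.p14 (15 for all 10 genes); the tables' build is hg19, and no coordinates were converted. The labels give biological replicates without saying what was separate, so p-values measure the spread between these clones. Python 3.11.15 and matplotlib 3.10.9 drew the figures.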

Additional observations from a re-analysis of the deposited data

Results flagged for a closer look

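The response to JQ1 differed between the genotypes for 3 of the 10 genes (limma), by -3.60 for ACSL5, -1.31 for SLC27A6 and -0.67 for SLC27A1, as knockout minus control clones on the log2 scale. Over all genes tested, 7.35% passed in this comparison, and 0 of the 3 did without control clone 3, 10 or 13 or knockout clone 15. For SLC27A6 the control clones had 0 reads with JQ1 and 2 with DMSO, and the difference was 1.09 with edgeR and -0.03 with DESeq2. ACSL5 passed the filter only through knockout DMSO libraries, so neither its value nor that of SLC27A6 is read as a tested difference.

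In the library left out (knockout clone 12, JQ1, replicate 1), 4 genes stood above every one of the 35 other libraries. ACSL5 had 505 normalized counts there, against 0.972 and 1.17 in its replicates and at most 160 elsewhere. ACSL1 had 2077, against 548 and 551 in its replicates. ACSL3 had 3408, against 1975 and 1891. SLC27A2 had 324, against 91.4 and 113. SLC27A6 went the other way, with 640 against 1602 and 1531. That library also held the lung and blood markers, and their part in these values was not tested.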

How the results depend on the processing

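The alternatives left the JQ1 responses in knockout clones largely as they were. In that comparison 8 or 9 of the 10 genes passed when 1 clone or replicate number was left out, and SLC27A2, SLC27A3, SLC27A4, SLC27A5, SLC27A6, ACSL1 and ACSL3 passed under every alternative that could be run. So did ACSL5, whose call is conditioned on the filter. For JQ1 in control clones 4 to 8 genes passed when 1 was left out, 4 without control clone 13. For the difference in response 0 to 3 passed, 0 without control clone 3, 10 or 13 or knockout clone 15. DESeq2 called 1, as did putting the left-out library back, where ACSL5 was at -2.72 (adjusted p = 0.0558) and SLC27A1 at -0.68 (adjusted p = 0.0525). The SLC27A6 difference was 1.09 with edgeR and -0.03 with DESeq2; control clones held 0 reads with JQ1 and 2 with DMSO. The adjusted p that DESeq2 left unset for ACSL5 stays unset, and ACSL5 has no value under a mean of at least 50.

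For knockout against control clones with DMSO, 2 to 4 genes passed when 1 was left out. With JQ1, 1 to 2 did, and 1 passed with no filter, a mean of at least 50, equal library totals or edgeR, and 4 with DESeq2. The cause of these changes was not tested. Over all genes, leaving 1 out gave 911 to 2017 calls (1971 in full) with DMSO, 731 to 1701 (1765) with JQ1 and 12 to 1636 (1154) for the difference. DESeq2 gave 3284, 2908 and 1769 for these comparisons, FPKM 521 and the left-out library 488 for the difference.

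Replicate numbers did not pair the samples: over 17 clone and number pairs the correlation of deviations was -0.04 to 0.05. With single libraries as replicates, which treats libraries of 1 clone as independent, 9 genes passed for genotype with DMSO, 9 with JQ1 and 7 for the difference, and the same numbers with the replicate block. All-gene counts were then 11616, 11535 and 7459 without and 11640, 11536 and 7415 with the block.

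Depth limits ACSL5, with 544 reads over 35 libraries, and SLC27A6 in control clones. Other scalings moved the median gene by less than 0.1 on the log2 scale.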
